A study of Mus musculus with 48 samples.

Results

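A set of 7 pericentral liver genes that depend on Wnt signalling were followed in the livers of young mice whose sires had been fed either of 2 diets. The 7 members, Glul, Axin2, Lgr5, Rnf43, Tbx3, Slc1a2 and Rhbg, were taken by name from the 19938 genes that the array annotation names with a single symbol, each read from its single-symbol probe set with the highest mean. All 7 lay above the filter on low values (a mean log2 value of 5.46), so all 7 were among the 13542 genes tested. The samples were livers (median lobe) of F1 offspring aged 3 weeks, male or female, on 48 Affymetrix arrays with 8 arrays in each of 6 groups. The offspring were labelled wild-type, ATF7+/- or ATF7+/+, and ATF7 is a transcription factor that responds to stress. Within each label the sires had eaten a control diet (CD) or a low protein diet (LPD) from 3 to 12 weeks of age. Groups are named by label and sire diet, as in WT_CD or ATF7+/-_LPD. Neither the distinction between ATF7+/+ and wild-type offspring nor the sire or litter of a sample is given in the labels, so p-values measure the spread between these samples.

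Liver lobules are zoned: blood runs from the portal tract past rows of hepatocytes to the central vein. Endothelial cells at the central vein secrete Wnt ligands, and Wnt signalling stabilises beta-catenin, which with TCF factors switches on a gene program in the hepatocytes nearest to that vein. Those cells take up ammonia and glutamate and make glutamine, while periportal hepatocytes turn ammonia into urea. The pericentral position of the members is background knowledge, since bulk liver keeps no position. In bulk tissue, fewer cells of a type and less RNA per cell cannot be told apart.

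Glul (glutamine synthetase) fixes ammonia onto glutamate and is the classical marker of the cells around the central vein. Slc1a2 encodes a glutamate importer and Rhbg an ammonia transporter, both of the same cells. Axin2 is a scaffold of the beta-catenin destruction complex and a feedback target of the pathway. Rnf43 is a ubiquitin ligase that removes Wnt receptors from the cell surface, and Lgr5 is a receptor for R-spondins, which hold that removal back. Tbx3 is a transcription factor and a Wnt target of pericentral hepatocytes.

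Upstream sequence is shown for the 4 of 7 members matched by symbol to RefSeq windows (GRCm38.p6), all on the plus strand; they include Glul with Slc1a2 and Axin2 with Rnf43, which are among the pairs whose values correlated over samples. Each line below holds the 250 bases before the annotated start, 5′ to 3′, at chr1:153899679-153899928 for Glul, chr2:102706188-102706437 for Slc1a2, chr11:108920099-108920348 for Axin2 and chr11:87662837-87663086 for the first of the Rnf43 starts; capitals mark a match to the TCF/LEF motif, searched on both strands in 4 forms, of which CTTTGAA is the first, CTTTGAT the second, CTTTGTA the third and CTTTGTT the last.
Glul: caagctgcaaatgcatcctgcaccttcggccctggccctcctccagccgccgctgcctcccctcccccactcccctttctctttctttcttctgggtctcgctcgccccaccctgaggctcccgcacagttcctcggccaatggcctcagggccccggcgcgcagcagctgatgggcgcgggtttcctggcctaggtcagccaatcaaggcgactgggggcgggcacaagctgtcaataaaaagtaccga
Slc1a2: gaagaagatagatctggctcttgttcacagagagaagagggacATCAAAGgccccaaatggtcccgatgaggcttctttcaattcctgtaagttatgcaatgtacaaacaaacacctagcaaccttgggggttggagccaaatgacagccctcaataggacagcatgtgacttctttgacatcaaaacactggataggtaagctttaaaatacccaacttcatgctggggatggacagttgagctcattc
Axin2: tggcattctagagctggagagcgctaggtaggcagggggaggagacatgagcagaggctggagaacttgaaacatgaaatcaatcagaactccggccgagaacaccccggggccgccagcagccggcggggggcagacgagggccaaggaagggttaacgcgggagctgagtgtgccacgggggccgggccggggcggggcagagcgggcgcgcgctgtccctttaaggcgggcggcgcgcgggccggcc
Rnf43: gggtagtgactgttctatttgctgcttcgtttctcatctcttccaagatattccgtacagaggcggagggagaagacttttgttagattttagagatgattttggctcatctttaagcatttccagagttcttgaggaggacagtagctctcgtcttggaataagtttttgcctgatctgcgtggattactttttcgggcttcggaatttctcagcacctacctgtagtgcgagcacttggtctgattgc
Over the whole windows of 300 bases, which also hold 50 bases after the start, 1 match was found. It lies 207 bases before the start of Slc1a2 and reads CTTTGAT on the opposite strand. Of all 32851 RefSeq windows of this length, 16.9% hold at least 1 of these 4 forms. A match is a description of the letters, not a binding site, and the forms are short. Windows of Tbx3, Lgr5 and Rhbg were not used here.

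The 9 hepatocyte markers measured averaged between 11.97 and 12.26 on the log2 scale in every sample, against array medians of 5.89 to 6.12 over all probe sets. Some samples shared features that the labels do not describe. The arrays fell into array set A (18 arrays) and array set B (30 arrays), by a component of the variation of 5591 probe sets for which the annotation lists no gene, with 3 arrays of every group in A and 5 in B. Set membership moved 68.2% of all genes tested in a joint fit, and among the members the set A level minus the set B level was -0.33 on the log2 scale for Glul (SE 0.14, limma adjusted p = 0.0386), -0.30 for Lgr5 (SE 0.14, adjusted p = 0.0446) and -0.32 for Tbx3 (SE 0.12, adjusted p = 0.0182). Replicates 4 and 5 of WT_CD and replicates 7 and 8 of ATF7+/+_CD were nearly identical arrays; each pair entered as its mean, so that there were 46 samples, 7 in each of those groups and 8 in each other. Replicate 2 of WT_CD and replicate 5 of ATF7+/+_CD stood apart with Sprr1a (a keratinocyte envelope gene) at log2 values of 10.37 and 10.11, against 7.35 at most elsewhere. Some results below are given with and without these 2 arrays, and others only with them. The level of 3 Y-linked genes was high on 32 arrays and low on 16; no member differed between these classes at adjusted p 0.05, against 0.561% of all genes.

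Over all samples, Rhbg was the only member called in a diet comparison, and only in wild-type offspring. Wild-type offspring of low protein sires had a higher Rhbg level than those of control sires by 0.81 on the log2 scale (SE 0.17, 95% interval 0.47 to 1.14), a 1.75-fold difference (limma adjusted p = 0.00266 over all genes). The other 6 members did not pass the adjusted p threshold of 0.05 in this comparison. Thus 1 of 7 members was called, where 3.6% of all genes tested were called (2.78% higher, 0.812% lower); this is a single gene, and nothing is read from it about the set. Glul had the next largest difference, 0.73 (SE 0.25, adjusted p = 0.100), and in ATF7+/- and ATF7+/+ offspring none of the 7 members passed.

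**Figure D1:**
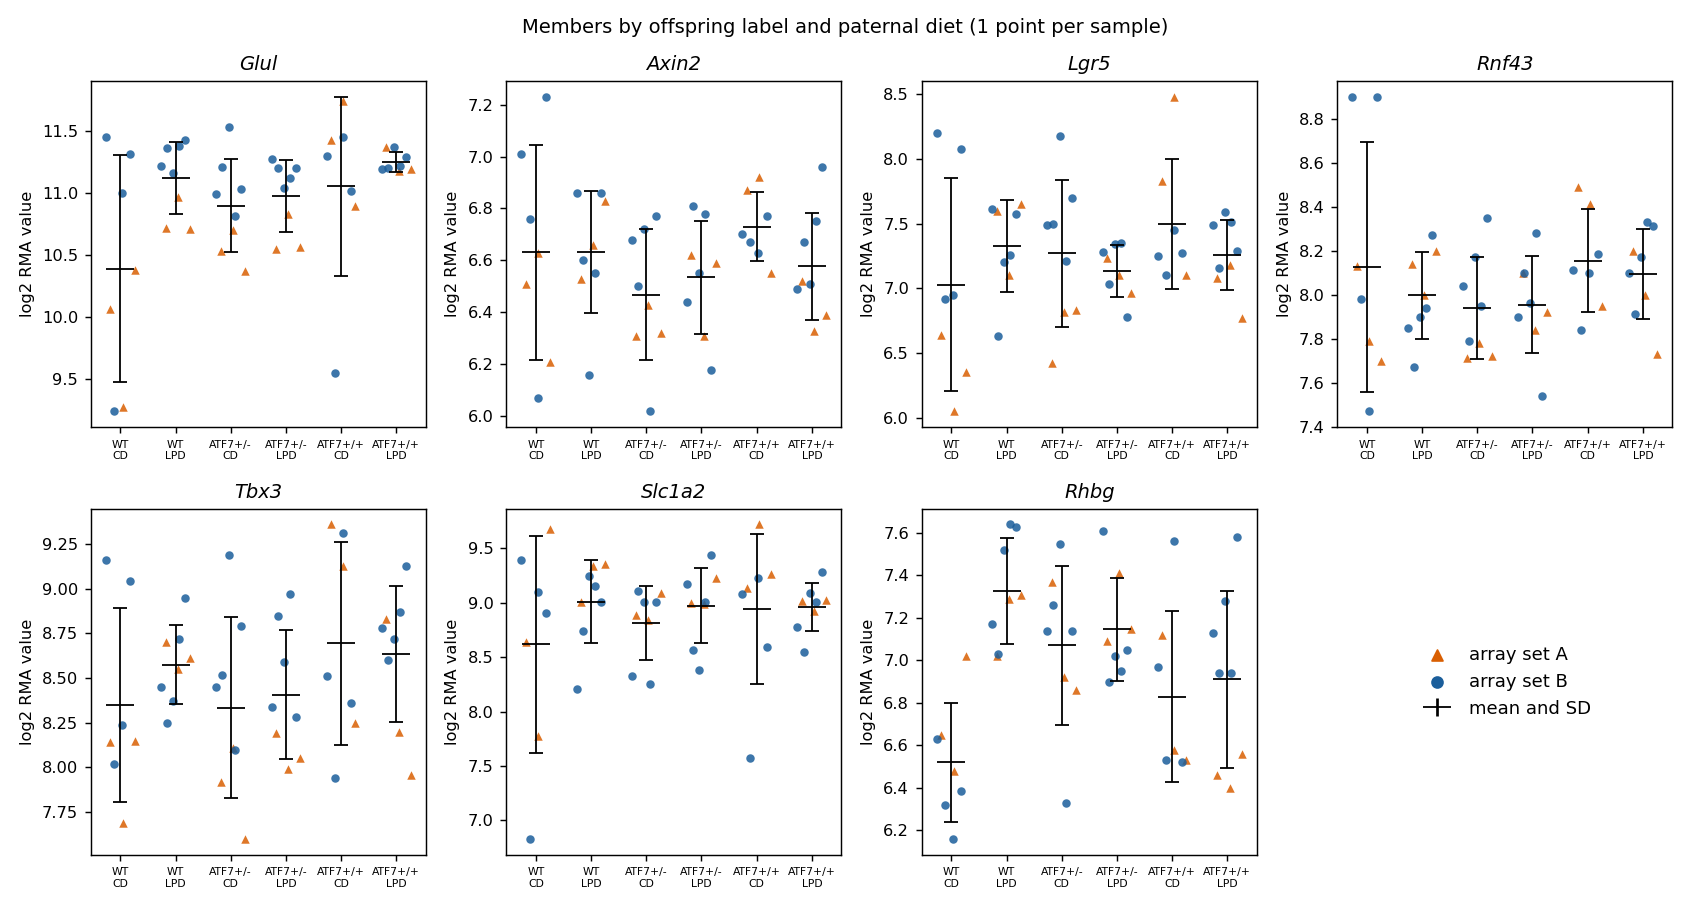
Log2 RMA value (y axis) of each member in every sample, by offspring label and paternal diet (x axis); triangles are samples of array set A, circles of array set B, and the black bars give the group mean and SD (n = 7 in WT_CD and ATF7+/+_CD, 8 in the others). Rhbg in WT_LPD sits between 7.02 and 7.64 and in WT_CD between 6.16 and 7.02, while Glul, Axin2, Lgr5, Rnf43 and Slc1a2 have their largest SD in WT_CD.

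The ammonia transporter Rhbg had log2 values from 6.16 to 7.02 (median 6.48) in WT_CD, with a mean of 6.52 ± 0.28 (SD, n = 7). In WT_LPD it ran from 7.02 to 7.64 (median 7.30), with a mean of 7.33 ± 0.25 (SD, n = 8). In WT_LPD 7 of 8 samples lay above the highest WT_CD sample, and the lowest WT_LPD sample equalled it at 2 decimals. In set A the WT_CD samples read 6.65, 6.48 and 7.02 and the WT_LPD samples 7.02, 7.29 and 7.31. In set B they read 6.63, 6.32, 6.16 and 6.385 in WT_CD, and 7.17, 7.03, 7.52, 7.64 and 7.63 in WT_LPD. The groups thus met at a single value in set A and did not overlap in set B. The share of all genes without overlap within an array set was not counted. The difference was 0.49 (SE 0.17, adjusted p = 0.0550) in set A fitted alone and 1.02 (SE 0.21, adjusted p = 0.00534) in set B fitted alone. Rhbg passed in each of the 46 fits that left out 1 sample (adjusted p 0.00156 to 0.00829), and its difference was 0.77 (adjusted p = 0.00486) with both arrays that stand apart left out.

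In ATF7+/- offspring Rhbg was 7.07 ± 0.37 (SD, n = 8; 6.33 to 7.55) with control sires and 7.15 ± 0.24 (n = 8; 6.90 to 7.61) with low protein sires. These groups overlapped almost fully, and the difference was 0.08 (95% interval -0.25 to 0.40). In ATF7+/+ offspring the values were 6.83 ± 0.40 (n = 7; 6.52 to 7.56) and 6.91 ± 0.42 (n = 8; 6.40 to 7.58), again overlapping, with a difference of 0.08 (95% interval -0.26 to 0.42). The diet comparisons of the 3 labels use separate samples, while both tests of a difference between labels share the wild-type samples. The test of the difference itself did not pass: the ATF7+/- diet difference minus the wild-type one was -0.73 (95% interval -1.20 to -0.26, adjusted p = 0.158), and the ATF7+/+ one minus the wild-type one was -0.72 (95% interval -1.20 to -0.25, adjusted p = 0.318). The Rhbg response is therefore not shown to differ between labels. Averaged over the 3 labels, the diet difference of Rhbg was 0.32 (SE 0.10, adjusted p = 0.112); it passed with the array set as a block (adjusted p = 0.0497, where 3.21% of genes were called) and without replicate 6 of ATF7+/+_CD (adjusted p = 0.0320).

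Some markers of other cell types were also called higher in the wild-type comparison, where 2.78% of all genes tested were called higher. At an unadjusted limma p under 0.05 there were 2153 of all 13542 genes. Of the stellate cell markers, 3 of 9 rose, Acta2 by 0.67 (adjusted p = 0.0134), Lrat by 0.53 (adjusted p = 0.0352) and Reln by 0.42 (adjusted p = 0.0368), and the mean of the list ran from 7.78 to 8.29 in WT_CD and from 8.31 to 8.57 in WT_LPD. Of 12 endothelial markers 1 rose, Cdh5 by 0.34 (adjusted p = 0.0105), with the list mean from 8.18 to 8.74 and from 8.45 to 8.67. Of 3 erythroid markers measured, Alas2 rose by 0.84 (adjusted p = 0.0196), with the list mean from 6.28 to 7.93 and from 6.75 to 7.62. Within set A Acta2 read 0.74, Lrat 0.85, Reln 0.82, Cdh5 0.45 and Alas2 1.33. Within set B they read 0.59, 0.31, 0.16, 0.27 and 0.51 in the same order, and none passed there. Rhbg read 0.49 within set A and 1.02 within set B. None of 9 hepatocyte markers (2 at an unadjusted p under 0.05), 8 Kupffer cell markers (0), 3 cholangiocyte markers (0) or 4 granulocyte markers (0) passed in limma; the hepatocyte list mean ran from 12.06 to 12.20 and from 11.97 to 12.18. The cholangiocyte markers Epcam, Cftr and Muc1 and the granulocyte markers S100a8, Ngp, Ltf and Camp lay below the filter. Of 13 cell cycle genes 9 rose, Mki67 by 1.55 (adjusted p = 0.00227) and Kif11 by 1.19 (adjusted p = 0.00241) among them, with a median of 0.94 over the list against 0.00 over all genes. The part of these cells and of cell division in the Rhbg result was not tested.

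**Figure D2:**
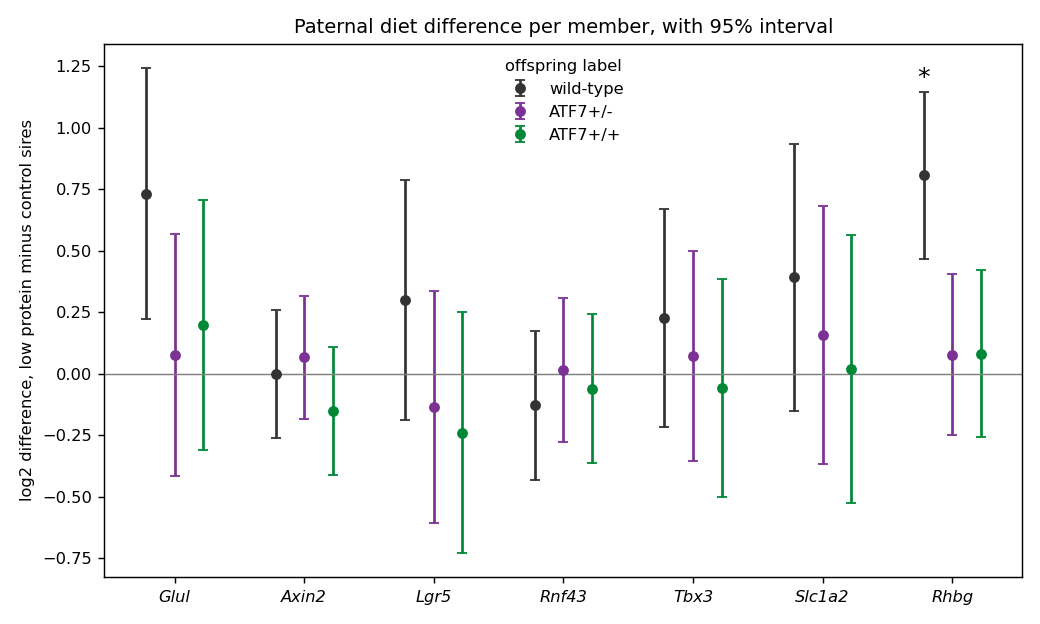
Log2 difference (low protein minus control sires, y axis) of each member (x axis) with its 95% interval from the limma fit, for wild-type (black), ATF7+/- (purple) and ATF7+/+ (green) offspring; an asterisk marks adjusted p under 0.05 over all genes. Only the wild-type Rhbg difference, 0.81, carries an asterisk, and the intervals of ATF7+/- and ATF7+/+ all include 0.

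The glutamine synthetase gene Glul spread most widely in WT_CD, from 9.24 to 11.45 (median 10.38; mean 10.39 ± 0.92, SD, n = 7), a 4.63-fold range. In WT_LPD it ran from 10.71 to 11.43 (median 11.19; mean 11.12 ± 0.29, n = 8). No WT_LPD sample exceeded the highest WT_CD sample, but 4 of 7 WT_CD samples lay below every WT_LPD sample. In set A the WT_CD samples read 10.06, 9.27 and 10.38 and the WT_LPD samples 10.72, 10.97 and 10.71. In set B the WT_CD samples read 11.45, 9.24, 11.00 and 11.31 and the WT_LPD samples 11.22, 11.36, 11.16, 11.38 and 11.43. The groups did not overlap in set A, which holds 3 samples of each. In set B they overlapped, with 1 low WT_CD value, that of replicate 2, which stands apart. The share of all genes without overlap in set A was not counted.

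The wild-type Glul difference of 0.73 (95% interval 0.22 to 1.24; a 1.66-fold difference) did not pass over all samples, and its call turned with several choices. It was 0.90 (SE 0.22, adjusted p = 0.0115) in set A alone, 0.56 (SE 0.32, adjusted p = 0.334) in set B alone and 0.71 (SE 0.24, adjusted p = 0.0485) with the array set as a block, where 9.26% of genes were called. Of the 46 limma fits that left out 1 sample it passed in 3. These were without WT_CD replicate 1 (0.91, adjusted p = 0.0318) and without the averaged WT_CD replicates 4 and 5 (0.89, adjusted p = 0.0371), the highest WT_CD samples. The last was without ATF7+/+_CD replicate 5 (0.73, adjusted p = 0.0464), which enters through the shared spread. Without the lowest WT_CD samples the difference shrank, to 0.54 (replicate 2, adjusted p = 0.231) and 0.55 (replicate 7, adjusted p = 0.288). With both arrays that stand apart left out it was 0.54 (SE 0.21, adjusted p = 0.137). Glul has a second probe set (10350753, beside 10374453). Over the 46 samples they correlated at r = 0.977 after the mean of each group in each array set was taken out. That r does not compare the probe sets between groups or array sets. The second gave a mean of 10.17 ± 0.81 (SD) over the 7 WT_CD samples. Over the 8 WT_LPD samples it gave 10.83 ± 0.08, where the first gave 11.12 ± 0.29. Its diet difference was 0.65. RefSeq also lists a Glul pseudogene, Glns-ps1, whose RNA these probe sets may not tell from that of Glul.

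In ATF7+/- offspring Glul was 10.90 ± 0.37 (SD, n = 8) with control and 10.97 ± 0.29 (n = 8) with low protein sires, a difference of 0.08 (95% interval -0.42 to 0.57). In ATF7+/+ offspring it was 11.05 ± 0.72 (n = 7; 9.55 to 11.74) and 11.25 ± 0.08 (n = 8; 11.18 to 11.37), a difference of 0.20 (95% interval -0.31 to 0.71). The wide spread of ATF7+/+_CD rests on replicate 5, and without the arrays that stand apart the ATF7+/+ difference was -0.05 (adjusted p = 0.981). The ATF7+/+_LPD samples lay within a 1.14-fold range, the narrowest of the 6 groups.

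Slc1a2, the glutamate importer, followed Glul in the samples where both were low. It ran from 6.83 to 9.68 (median 8.905) in WT_CD, a 7.21-fold range, and from 8.21 to 9.36 (median 9.08) in WT_LPD. The means were 8.62 ± 0.99 (SD, n = 7) and 9.01 ± 0.38 (n = 8), and the ranges overlapped. The difference of 0.39 (95% interval -0.15 to 0.93, adjusted p = 0.535) fell to 0.09 (adjusted p = 0.859) with the arrays that stand apart left out. It was 0.16 (95% interval -0.37 to 0.68) in ATF7+/- and 0.02 (95% interval -0.53 to 0.56) in ATF7+/+ offspring.

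**Figure D3:**
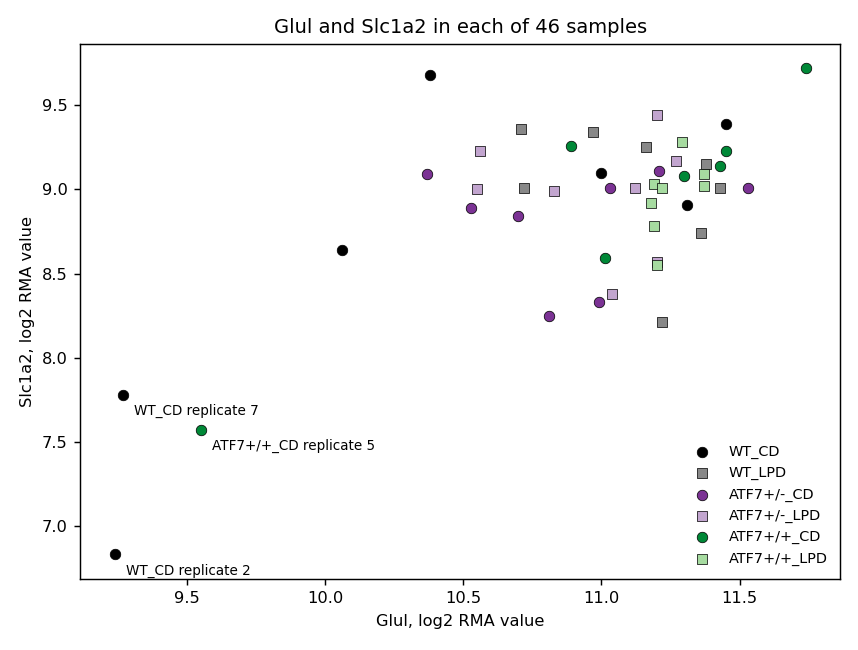
Log2 RMA values of Glul (x axis) and Slc1a2 (y axis) in each of the 46 samples, coloured by group; circles are control and squares low protein sires. The 3 samples WT_CD replicates 2 and 7 and ATF7+/+_CD replicate 5 lie at Glul values of 9.24, 9.27 and 9.55 with Slc1a2 at 6.83, 7.78 and 7.57, below all other samples on both axes.

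Other genes were read in the 3 samples with the lowest Glul. Cyp2e1, a pericentral cytochrome P450, read 12.58 both in WT_CD replicate 2 and in ATF7+/+_CD replicate 5, 12.94 in WT_CD replicate 7 and 12.73 or more in all others. Oat, which makes glutamate from ornithine in pericentral cells, read 9.34, 9.94 and 9.27 in the same order, against 9.86 to 11.35 elsewhere. Albumin (Alb) read 13.50, 13.39 and 13.56 in the same 3 samples, within the range of 13.32 to 13.70 over all samples. Asgr1, an asialoglycoprotein receptor of hepatocytes, read 10.04, 10.21 and 10.49, its 3 lowest values, against 10.51 or more in all others. Lgals3, a galectin of macrophages and injured tissue, read 9.44 in WT_CD replicate 2, 9.16 in ATF7+/+_CD replicate 5 and 8.12 in WT_CD replicate 7, its 3 highest values. These genes were chosen after their values were seen, and their part in the Glul spread was not tested.

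Axin2, the feedback scaffold, had the same mean in both wild-type groups. It was 6.63 ± 0.41 (SD, n = 7; 6.07 to 7.23) in WT_CD and 6.63 ± 0.23 (n = 8; 6.16 to 6.86) in WT_LPD, with a difference whose 95% interval ran from -0.26 to 0.26. The difference was 0.07 (95% interval -0.18 to 0.32) in ATF7+/- offspring and -0.15 (95% interval -0.41 to 0.11) in ATF7+/+ offspring. All 6 group means of Axin2 lay within a 1.20-fold span, from 6.47 in ATF7+/-_CD to 6.73 in ATF7+/+_CD.

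Rnf43, the ligase that clears Wnt receptors, was 8.12 ± 0.57 (SD, n = 7; 7.47 to 8.90) in WT_CD and 7.996 ± 0.20 (n = 8; 7.67 to 8.27) in WT_LPD. The difference of -0.13 (95% interval -0.43 to 0.17) had an adjusted p of 0.758. The wild-type samples of both diets overlapped, and the WT_CD samples reached both further up and further down. It was 0.02 (95% interval -0.28 to 0.31) in ATF7+/- and -0.06 (95% interval -0.36 to 0.24) in ATF7+/+ offspring.

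The wild-type diet difference of Lgr5, the R-spondin receptor, was not the same in the 2 array sets; that difference between sets was not itself tested. Over all samples it was 7.03 ± 0.82 (SD, n = 7; 6.05 to 8.20) in WT_CD and 7.33 ± 0.35 (n = 8; 6.63 to 7.65) in WT_LPD, a difference of 0.30 (95% interval -0.19 to 0.79, adjusted p = 0.619). In set A the WT_CD samples read 6.64, 6.05 and 6.35 and the WT_LPD samples 7.60, 7.10 and 7.65, without overlap. As for Glul, the share of all genes without overlap in that set was not counted. In set B the WT_CD samples read 8.20, 6.92, 6.95 and 8.08 and the WT_LPD samples 7.61, 6.63, 7.20, 7.26 and 7.57, with overlapping ranges: 2 WT_CD samples lay above every WT_LPD sample and 1 WT_LPD sample lay below every WT_CD sample. The difference was 1.10 (SE 0.25, adjusted p = 0.00703) in set A alone and -0.28 (adjusted p = 0.530) in set B alone, so it did not hold within both. In ATF7+/- and ATF7+/+ offspring Lgr5 differed by -0.13 (95% interval -0.61 to 0.34) and -0.24 (95% interval -0.73 to 0.25).

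Tbx3, the transcription factor, was 8.35 ± 0.54 (SD, n = 7; 7.69 to 9.16) in WT_CD and 8.58 ± 0.22 (n = 8; 8.25 to 8.95) in WT_LPD. In WT_CD 5 of 7 samples lay below every WT_LPD sample, while 2 lay above all of them, and the difference was 0.23 (95% interval -0.22 to 0.67, adjusted p = 0.694). It was 0.63 (adjusted p = 0.0799) in set A alone and -0.07 (adjusted p = 0.920) in set B alone. In ATF7+/- and ATF7+/+ offspring it was 0.07 (95% interval -0.36 to 0.50) and -0.06 (95% interval -0.50 to 0.38).

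**Figure D4:**
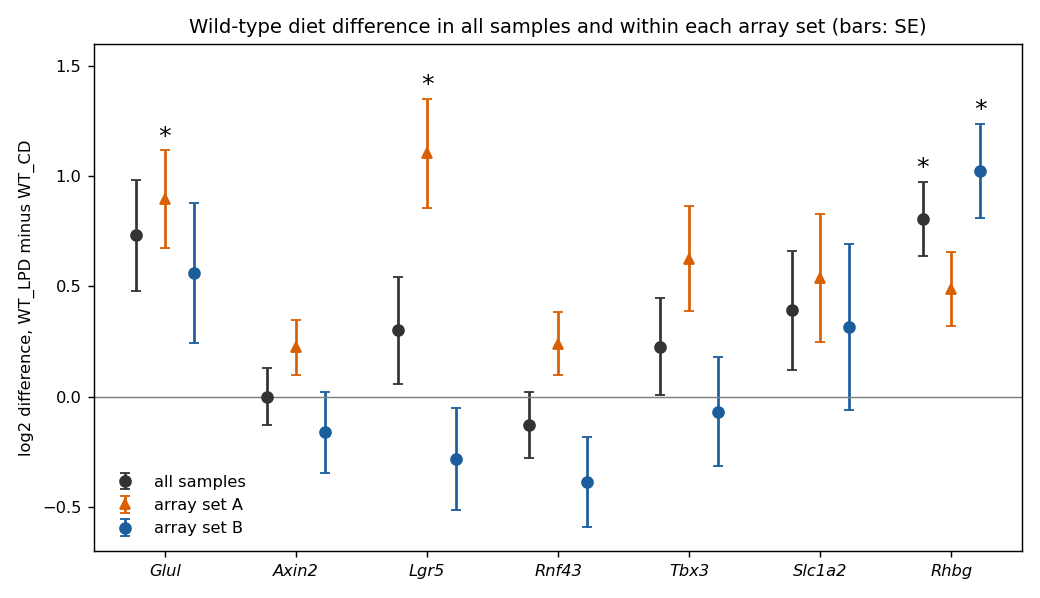
Log2 difference between WT_LPD and WT_CD (y axis) of each member (x axis) in all samples (black) and in array set A (orange triangles; 3 against 3) or B (blue circles; 5 against 4) fitted alone; bars are standard errors and an asterisk marks adjusted p under 0.05. Lgr5 lies at 1.10 for set A but at -0.28 for set B, while Rhbg and Glul lie above 0 in both.

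Array set A on its own called 2 of the 7 members in the wild-type diet comparison, Glul and Lgr5, where it called 15.6% of all genes; set B on its own called 1, Rhbg, where it called 4.72%. Across the members, the wild-type differences in set A were all above 0, from 0.22 for Axin2 to 1.10 for Lgr5. In set B they ran from -0.39 for Rnf43 to 1.02 for Rhbg, with 4 of 7 below 0. WT_CD had the largest SD of the 6 groups for 5 of the 7 members (Glul, Axin2, Lgr5, Rnf43 and Slc1a2), as it had for 30.6% of all genes. No member had fully separate diet groups in any label; in wild-type offspring 0.561% of all genes did.

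The remaining comparisons asked whether the label itself, or its meeting with diet, went with the members. Brackets give the share of all genes called, then the members at an unadjusted p under 0.05, which is a looser limit. At that looser limit limma counted 1373 of all 13542 genes for the diet mean over labels. For diet effects against wild-type it counted 1253 (ATF7+/-) and 956 (ATF7+/+). Between labels it counted 1679 (ATF7+/+ against wild-type) and 1545 (ATF7+/- against ATF7+/+). Over all samples limma called no member in the ATF7+/- diet comparison (0% of genes called; 0 members at an unadjusted p under 0.05), the ATF7+/+ diet comparison (0.00738%; 0 members) or the diet mean over labels (0.805%; 2 members, Glul and Rhbg). No member was called where diet effects were set against each other between ATF7+/- and wild-type (0.635%; 1 member, Rhbg), ATF7+/+ and wild-type (0.0222%; 1 member, Rhbg) or ATF7+/- and ATF7+/+ (0%; 0 members). The labels averaged over diet also gave no call for ATF7+/- against wild-type (0.00738%; 0 members), ATF7+/+ against wild-type (0.0222%; 1 member, Glul at 0.40, 95% interval 0.04 to 0.76, adjusted p = 0.333) or ATF7+/- against ATF7+/+ (0.155%; 1 member, Rhbg at 0.24, 95% interval 0.00 to 0.47, adjusted p = 0.430).

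Set A alone gave a different picture for the labels. Glul was higher in ATF7+/+ than in wild-type offspring there by 0.95 (SE 0.16, adjusted p = 0.000368), Lgr5 was higher by 0.51 (adjusted p = 0.0384) and Rhbg differed by -0.35 (adjusted p = 0.0335), where set A called 28.6% of all genes. In ATF7+/- against ATF7+/+ offspring of set A, Glul differed by -0.71 (adjusted p = 0.00371), Tbx3 by -0.65 (adjusted p = 0.0104), Lgr5 by -0.51 (adjusted p = 0.0432) and Rhbg by 0.53 (adjusted p = 0.00451), where 22.8% of all genes were called. For the diet effect on Lgr5, the ATF7+/+ difference minus the wild-type one was -1.90 (SE 0.35, adjusted p = 0.00925) in set A, where 3.08% of genes were called. In set B the same values were 0.01, -0.06 and 0.15, then 0.10, -0.07, 0.05 and 0.06, and 0.42 for the diet effect on Lgr5, and none passed (0%, 0% and 0.0886% of genes called). Every ATF7+/+ array of set A, 6 in all, was high for the Y-linked genes, so in that set the label and the Y-linked class are partly joined, and their parts were not told apart.

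The order of the 6 groups differed between members. Glul was lowest in WT_CD and highest in ATF7+/+_LPD, Lgr5 lowest in WT_CD and highest in ATF7+/+_CD, and Slc1a2 and Rhbg lowest in WT_CD and highest in WT_LPD. Axin2, Rnf43 and Tbx3 were lowest in ATF7+/-_CD and highest in ATF7+/+_CD. Neighbouring groups in these orders differed by less than the larger of their SDs for every member. The span from lowest to highest group mean was 1.82-fold for Glul, 1.75-fold for Rhbg and 1.16-fold to 1.39-fold for the others.

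**Figure D5:**
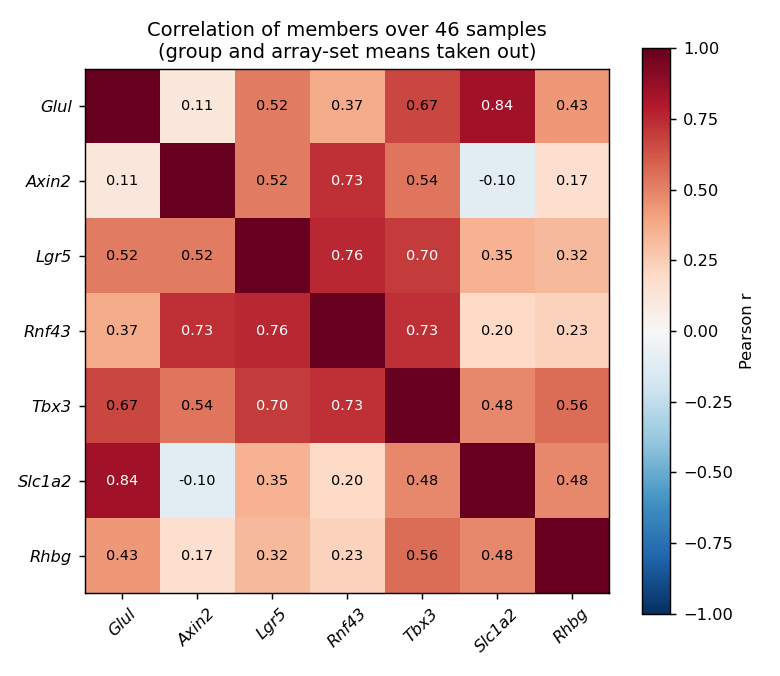
Pearson r between members over the 46 samples after each group's mean within each array set was taken out; red is positive and blue negative. Glul and Slc1a2 have the highest r at 0.84 (0.63 without the arrays that stand apart), and Axin2, Lgr5, Rnf43 and Tbx3 correlate at 0.52 to 0.76 among themselves.

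From sample to sample Glul correlated most with Slc1a2, and the regulators Axin2, Lgr5, Rnf43 and Tbx3 correlated at 0.523 to 0.756 among themselves. The regulators were not separate from that pair, since Tbx3 (0.669) and Lgr5 (0.519) also correlated with Glul. No clustering was run. These correlations are given over 46 samples as a description, after the mean of each group in each array set was taken out; all samples come from the same lobe, and both array sets enter. Glul and Slc1a2 correlated at r = 0.836 (Spearman rho 0.621), at 0.712 without the 2 samples farthest from the median of Glul and at 0.629 over 44 samples without the arrays that stand apart. The r was 0.734 within set A (18 samples) and 0.861 within set B (28 samples). Among the pathway regulators, Lgr5 and Rnf43 correlated at 0.756 (rho 0.722), Axin2 and Rnf43 at 0.732 (rho 0.674), Rnf43 and Tbx3 at 0.728 (rho 0.811) and Lgr5 and Tbx3 at 0.702 (rho 0.653). The correlation was -0.105 between Axin2 and Slc1a2 and 0.112 between Axin2 and Glul. Tbx3 correlated with every other member at 0.483 or more over all 46 samples, and with Glul at 0.669. The lowest of these, with Slc1a2 (rho 0.346), fell to 0.280 without the arrays that stand apart. Rhbg reached at most 0.557, with Tbx3.

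Over all genes tested, the genes most like Glul were Nxpe2 (r = 0.913), Cyp2c50 (0.879) and Cyp2e1 (0.877), and without the 2 farthest samples these values were 0.806, 0.737 and 0.768. Those most like Slc1a2 were Lhpp (0.894), Oat (0.841) and Glul, at 0.85, 0.81 and 0.712 without its 2 farthest samples. For the other members the values are given over all 46 samples only. Those most like Axin2 were Kdm2b (0.825), Rnf43 and Ccn1 (0.716). Avpr1a, a vasopressin receptor of pericentral hepatocytes, was most like Lgr5 (0.761), followed by Rnf43 and Ube2e2 (0.733). Irs1, an insulin receptor substrate, was most like Rnf43 (0.781), followed by Lgr5 and Dusp6 (0.740). Tbx3 was most like Aqp9 (0.745), Shroom2 (0.742) and Rnf43, and Rhbg most like Fbln5 (0.710), P2ry4 (0.649) and Slc13a3 (0.646).

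The 14 other pericentral genes measured correlated with the members at medians of 0.15 (Axin2) to 0.53 (Tbx3), and the 13 periportal genes at medians of -0.32 (Tbx3) to 0.11 (Slc1a2). Both ranges are given over all 46 samples only. Of 9 genes for Wnt ligands, R-spondins and secretion, the median correlation was 0.016 with Glul and 0.052 with Slc1a2, and 0.046 and -0.006 without the arrays that stand apart. The highest was that of Wnt2, a ligand made by liver endothelium, at 0.808 with Glul and 0.756 with Slc1a2, and at 0.655 and 0.600 without the arrays that stand apart. Of 9 other Wnt target and feedback genes, the median was 0.069 with Glul, between Myc at -0.615 and Notum, which inactivates Wnt proteins, at 0.703. Without those arrays the median was -0.121, and Myc read -0.236 and Notum 0.420. These 3 genes are named as the ends of their lists, after their values were seen.

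The correlations of Glul with cell cycle genes rested largely on the arrays that stand apart, while those of Slc1a2 weakened without them and stayed negative. Over all 46 samples the 13 genes correlated with Glul at -0.66 to -0.53 (median -0.630) and with Slc1a2 at -0.72 to -0.55 (median -0.664). Without those arrays the range with Glul was -0.201 to 0.153 (median -0.043), with 4 genes positive and 9 negative. With Slc1a2 it was -0.544 to -0.138 (median -0.376), with all 13 negative. With Rhbg the genes ranged from -0.19 to 0.14, and from -0.05 to 0.43 without those arrays. With Tbx3 the median was -0.211, and 0.163 without those arrays.

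The rest of the pathway showed few calls in the wild-type diet comparison. Over all 13542 genes limma called 2.78% higher there and gave 2153 an unadjusted p under 0.05. None of 9 other Wnt target and feedback genes passed in limma (0 at an unadjusted p under 0.05; median -0.01), Sp5 at -0.10 and Myc at -0.42 being those of smallest p. None of 9 genes for Wnt ligands, R-spondins and secretion passed (2 at an unadjusted p under 0.05), Wnt2 at 0.39 (SE 0.12, adjusted p = 0.0708) and the Wnt carrier Wls at 0.22 (adjusted p = 0.269); the median was 0.05. Of 24 receptor and beta-catenin pathway genes 1 rose, the receptor Fzd6, by 0.25 (SE 0.06, adjusted p = 0.0139), at 0.11 within set A against 0.35 within set B; the median was 0.02. The ligand genes Wnt2b, Wnt5a and Rspo2 lay below the filter. None of 9 close relatives of the members passed in limma (1 at an unadjusted p under 0.05), Rhcg, a second ammonia transporter, reading -0.15 (adjusted p = 0.308). The mean log2 value of Rhcg was 5.5 and that of Sp5 5.66, both near the filter of 5.46.

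Other zoned genes and the ammonia and glutamine genes were read in the same comparison. There limma gave 2153 of all 13542 genes an unadjusted p under 0.05. None of 14 other pericentral genes passed in wild-type offspring (5 at an unadjusted p under 0.05), with 10 of 14 higher and a median of 0.23; Cyp1a2, a pericentral P450, read 0.68 (SE 0.21, adjusted p = 0.0501) and Lect2 0.80 (SE 0.26, adjusted p = 0.0679). Of 13 periportal genes 1 fell (4 at an unadjusted p under 0.05), Etnppl, by 0.81 (SE 0.23, adjusted p = 0.0330), with 3 of 13 higher and a median of -0.12. Of 14 ammonia and glutamine handling genes 2 fell (7 at an unadjusted p under 0.05). They were Gpt2, an alanine aminotransferase, by 0.65 (SE 0.18, adjusted p = 0.0276) and Slc7a2, a transporter of cationic amino acids, by 0.59 (SE 0.18, adjusted p = 0.0488). Within set A Gpt2 read -1.17 and Slc7a2 -1.12, and within set B -0.29 and -0.20. Over all genes tested, 51.0% were higher, the median was 0.00 and 0.812% were called lower. Outside the wild-type diet comparison 1 gene of the Wnt, relative, zonation and nitrogen lists passed over all samples: Lgr4, another R-spondin receptor, which was higher in ATF7+/- than in ATF7+/+ offspring by 0.29 (SE 0.06, adjusted p = 0.0403), at 0.46 within set A against 0.17 within set B.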

How the data were processed

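The table of 35556 probe sets holds log2 values, made by the authors with RMA (Affymetrix Expression Console), as listed per the submitters' processing notes; joint normalization of the 48 arrays is not given in the sources used here. The deposited log2 values were used without further normalization. Probe sets with 1 gene symbol and a mean at or above the 40th percentile (5.46) were kept, 1 per gene (the highest mean). Pairs of arrays whose difference over variable genes was less than 2 times that over stable genes were averaged (ratios 1.53 at most, against 2.45 or more in other pairs; chosen after seeing them). Group means were fitted with limma 3.58.1 in R 4.3.3, with 10 contrasts, two-sided tests and Benjamini-Hochberg adjustment over 13542 genes; a gene passed at 0.05. Intervals are limma's, per gene. The steps were tested on simulated data. Array number limits precision; arrays have no depth per sample.

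The members and gene lists were chosen with earlier results of these data known. Named were the 7 members, in each list up to 4 passing genes of smallest p (or up to 2 not passing), and the 3 genes most correlated with each member. Array sets were split at the widest gap along principal component 1 of unlisted probe sets.

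Same-numbered samples of both diets had deviations from group means that correlated at 0.18 to 0.735 in ATF7+/- and 0.303 to 0.672 in ATF7+/+ offspring (-0.467 to 0.503 in wild-type); with array-set means taken out the first 2 were -0.038 to 0.375 and -0.156 to 0.347, so the numbers are not shown to pair samples beyond a shared array set. Alternatives changed the filter, scaling, probe set choice, prior, array weights, groups fitted, replicate block, array set, Y-linked covariate and samples. Leaving out the 2 arrays that stand apart, also for correlations, was added after seeing the data.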

Additional observations from a re-analysis of the deposited data

Results flagged for a closer look

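In 2 of 42 member-by-group sets a single sample lay far from the rest, which is about the share of 1 in 20 that chance gives. Glul in ATF7+/+_CD had its lowest value in replicate 5, 9.55 against 10.89 for the next sample, a gap that was 0.612 of the group's range where 0.568 is the limit for 7 samples. That array also stands apart by Sprr1a. Axin2 in WT_LPD had its lowest value in replicate 5, 6.16 against 6.53 for the next sample, a gap that was 0.529 of the range where 0.526 is the limit for 8 samples.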

How the results depend on the processing

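Of 4382 values of the 70 member differences under these alternatives, 0 reversed a call, 1 lost it and 19 gained it. A further 30 were counted as moved, with no call lost, gained or reversed, and 4332 as the same. In 152 values the sign turned with no call on either side. The value that lost its call was Rhbg in the wild-type diet comparison of array set A alone (0.49, adjusted p = 0.0550). The number of members passed in the wild-type diet comparison was 1 over all samples. It was 2 with the array-set block, with that block and the Y-linked covariate together and in array set A alone, and from 1 to 2 with single samples left out. For the diet mean over labels it went from 0 to 1 with array weights, with the array-set block and with that block and the Y-linked covariate, and ran from 0 to 1 with single samples left out. In array set A alone it went from 0 to 1 for the diet effect of ATF7+/+ against wild-type, to 3 for the labels ATF7+/+ against wild-type and to 4 for ATF7+/- against ATF7+/+. The cause was not tested.

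The replicate block left the number of members passed at 1 in the wild-type diet comparison and at 0 in the others, and gave Rhbg 0.80 (adjusted p = 0.00243) and Glul 0.76 (adjusted p = 0.0896); a block within each label gave 0.78 (0.00139) and 0.73 (0.0832), and it changed no other call of a member. Over all genes, calls in the wild-type comparison numbered 487, against 139 with only its groups fitted, 1254 with the array-set block, 1437 with that block and the Y-linked covariate and 2118 in array set A alone. The array-set block also raised calls from 109 to 435 for the diet mean, from 3 to 460 for ATF7+/+ against wild-type and from 21 to 439 for ATF7+/- against ATF7+/+. The replicate block raised the last 2 to 15 and 34 and the diet effect of ATF7+/+ against wild-type from 3 to 8; with the arrays that stand apart left out, 129 genes were called for ATF7+/+ against wild-type. Of the wild-type diet calls 77.4% were higher as deposited and 90.5% with each array's median set equal. The fit of only the groups compared was not run for the diet mean, nor the block within labels for label comparisons. Each set fitted alone holds 3 to 5 samples a group, and 7 or 8 arrays a group limit every interval.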
